A study of Mus musculus with 20 samples.

Results

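The genes described here encode the lysosomal cathepsins, the subunits and accessory proteins of the vacuolar proton pump, and the Lamp proteins. They were chosen by symbol alone: Cts followed by 1 letter, or a symbol starting with Atp6v, Atp6ap or Lamp plus a digit, with pseudogenes left out. The rule found 42 of 20914 genes in the deposited count table, namely 15 cathepsins, 21 genes with the Atp6v prefix, 3 Atp6ap genes and 3 Lamp genes. Of these, 34 had enough counts to be tested. Ctsm, Ctsq, Ctsr, Atp6v1e2, Atp6v1g3 and Lamp5 also match the rule in the authors' RefSeq annotation but have no row in the count table.

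Lysosomes digest material that reaches them by endocytosis and autophagy, and cathepsins are their main proteases, made as inactive precursors that mature in acid. The acid comes from the vacuolar H+-ATPase (V-ATPase), a rotary pump whose peripheral V1 sector splits ATP and whose membrane-bound V0 sector carries protons. Lamp proteins are densely glycosylated proteins of the lysosomal membrane. In liver, hepatocytes clear lipid droplets and organelles through this system, and Kupffer cells, the resident macrophages, digest what they take up from blood.

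RNA-seq of the left lateral liver lobe compared 10 knockout (KO) with 10 wild-type (WT) male mice of the strain LiB12cKO, aged 8 weeks. KO mice had the genotype HSD17B12lox/lox;Alb-CreCre/WT and WT mice HSD17B12lox/lox;Alb-CreWT/WT, so all 20 carried the floxed gene and the KO mice alone carried Cre. The Alb promoter drives Cre in hepatocytes. Effects of Cre and of the deletion cannot be told apart in this design. Hsd17b12 encodes a reductase of very-long-chain fatty acid elongation, and the study asks what its loss from hepatocytes does to the liver.

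Assigned fragments ran from 16693195 to 24895938 in KO and from 19676907 to 29124124 in WT. Hsd17b12 was at 44.2 to 51.3 CPM (fragment counts scaled to a common library size) in KO and at 123 to 177 CPM in WT, a log2 fold change of -1.66 ± 0.06 (SE, adjusted p = 3.8e-14, edgeR). The genotypes differed in RNA composition: TMM factors, which correct library size for this, ran from 1.05 to 1.24 in KO and from 0.787 to 0.974 in WT. Without that correction the median change over the 13670 tested genes moved from -0.02 to 0.44 on the log2 scale, a shift of 0.47. CPM and fold changes below are TMM-scaled, fold changes are KO relative to WT, and a gene is called at an adjusted p under 0.05. By principal components KO_391 stood apart from its group: it scored -4.07 on the leading axis of the 1000 most variable genes, the remaining KO mice -58.2 to -28.5 and WT mice 22.5 to 45.6.

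The transcripts of this system did not move as a block. Of the 34 tested members, 15 rose in KO, 3 fell and 16 were not called, against 28.2% of all tested genes higher and 31.0% lower. Without KO_391, 18 members were higher and 3 lower, and of 13791 genes tested in that fit 4180 were higher and 4037 lower. Cathepsin D (Ctsd), the main aspartic protease of lysosomes, had the largest fold change at 2.59-fold, followed by Ctss at 1.98-fold and Atp6v1a, the catalytic pump subunit, at 1.85-fold. The 3 members that fell were Lamp2, Ctsh and Ctsf, each to between 0.719 and 0.787 of WT, and none of the 3 was called under library size scaling. With that scaling 28 members were higher and 0 lower (0 lower also at an unadjusted p under 0.05, edgeR), against 68.4% and 6.71% of all genes, and the 15 that rose with TMM were all among the 28. The CPM ranges of the 2 genotypes did not overlap for 5 members that were higher in KO, namely Ctsd, Atp6v0e, Atp6v1h, Atp6v1b2 and Atp6v1a, and for 2 that were lower, namely Ctsh and Lamp2. Among all genes 7.10% were higher and 6.47% lower without overlap.

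Proteases and pump subunits were close as groups. Of 12 tested cathepsins 6 rose and 2 fell, with a median log2 fold change of 0.20. Of 17 tested V-ATPase subunits 8 rose and 0 fell, with a median of 0.23, beside -0.02 over all tested genes. At an unadjusted p under 0.05 edgeR gave 1 lower subunit, Atp6v1f, and DESeq2 and limma-voom called 0 lower. The same medians were 0.67 and 0.70 under library size scaling, where all genes had 0.44. The difference between the TMM medians was -0.02 and took either sign under other settings, from -0.15 to 0.09, so the groups were not told apart by it. Within each group the spread was wider than the gap between them: cathepsins ran from -0.48 to 1.37 and subunits from -0.23 to 0.89.

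**Figure D1:**
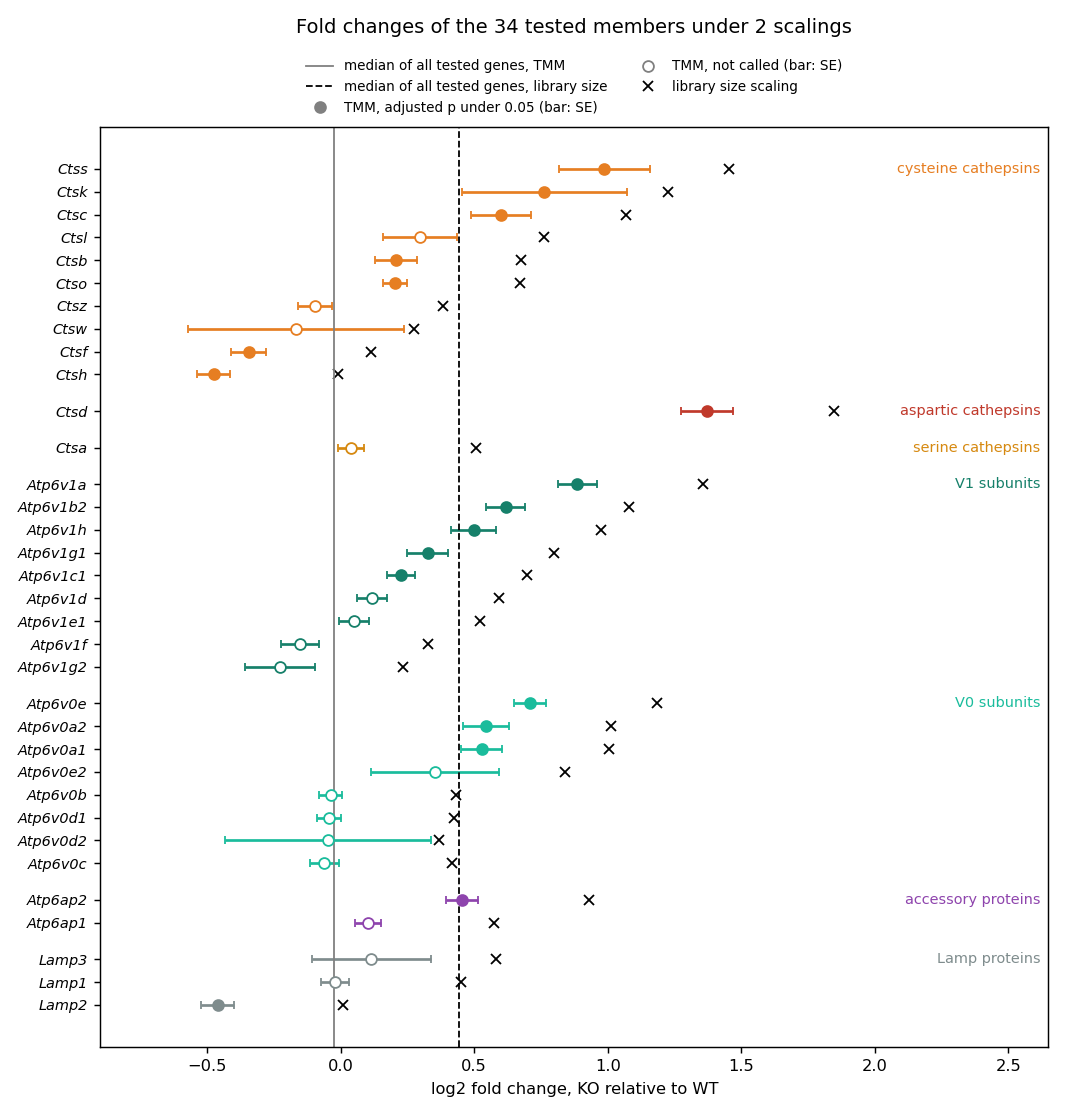
Log2 fold change (KO over WT) for each of the 34 tested members, grouped by role. Circles with SE bars are TMM fits, filled where the adjusted p is under 0.05, and crosses are fits with library size scaling. Vertical lines mark the median over the tested genes at -0.02 (TMM) and 0.44 (library size). Ctsd lies farthest to the right under either scaling. Lamp2, Ctsh and Ctsf lie left of the other called members with TMM and near 0 with library size scaling, where Lamp2 and Ctsf are slightly above 0.

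Many lysosomal genes are known to carry the palindrome TCACGTGA or its core CACGTG near their start, where factors of the TFEB family bind. The sequences below show where these letters stand in members that rose, fell or were not called. Windows from 250 bases before to 50 bases after the start were taken from RefSeq (GRCm38.p6), with 31 of the 42 members matched, 25 of them tested. The letters read the same on both strands, and each TCACGTGA contains CACGTG. Capitals mark CACGTG, and each sequence runs 5′ to 3′ on the strand of its gene.
Ctsd: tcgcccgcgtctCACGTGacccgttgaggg
Atp6v1a: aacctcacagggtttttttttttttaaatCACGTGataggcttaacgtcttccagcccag
Atp6v0e: ttagcgcgccgatCACGTGagcctc
Ctsa: ctgtCACGTGatgcagatgctCACGTGac
Atp6v0d1: ctactgcggtCACGTGagacgcggtg
Lamp1: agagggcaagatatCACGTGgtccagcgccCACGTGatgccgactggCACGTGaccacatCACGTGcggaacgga
Atp6v0b: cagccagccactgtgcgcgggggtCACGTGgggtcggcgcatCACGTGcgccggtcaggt
Ctsf: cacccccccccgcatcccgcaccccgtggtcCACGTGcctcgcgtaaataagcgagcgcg

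The Ctsd stretch is chr7:142387908-142387937 on the minus strand, the Atp6v1a stretch chr16:44139360-44139419 (minus) and the Atp6v0e stretch chr17:26676386-26676410 (plus). The Ctsa stretch is chr2:164833757-164833785 (plus), the Atp6v0d1 stretch chr8:105566052-105566077 (minus) and the Lamp1 stretch chr8:13159086-13159160 (plus). The Atp6v0b stretch is chr4:117887330-117887389 (minus) and the Ctsf stretch chr19:4855055-4855114 (plus). Starts of these windows need not match the ends of the counted genes. The Ctsa stretch lies inside the counted gene, with all 29 of its bases in exons. The matching windows of Atp6v1a and Ctsl lie wholly upstream of the counted genes.

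The full TCACGTGA was in the windows of 5 of 31 members, against 0.974% of all 32851 windows, and CACGTG was in 9 members, against 7.15% of windows. A member was counted if any window of its symbol matched, while the shares are per window, so their units differ. Of 9 members with a window that rose, 3 held TCACGTGA: Ctsd with its first base at -99, Atp6v1a at -132 and Atp6v0e at 3, counted from the start as 1. Of 14 that were not called, Ctsa and Atp6v0d1 also held it, Ctsa at -13 and 5 and Atp6v0d1 at -4. The core alone stood 4 times in Lamp1, at -36 and -18 in Atp6v0b and at -236 in Ctsl, none of them called with TMM. It also stood at -245 in Ctsd and at -79 in Ctsf, which fell with TMM (library size log2 fold change 0.11, not called). CACGTG was thus found in members that rose, fell and were not called, and a match describes the sequence only.

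Among aspartic proteases, Ctsd (chr7:142375916-142387870, mm10) lay at 470 to 979 CPM in KO with a median of 671, and at 244 to 301 CPM in WT with a median of 275. Its log2 fold change was 1.37 ± 0.10 (SE, adjusted p = 1.7e-10, edgeR). Every KO mouse was above every WT mouse. KO_391 was the lowest KO mouse at 470 CPM and KO_434 the highest at 979, and the fold change was 1.45 without KO_391. The spread between mice was 141 CPM (SD) in KO and 19.3 in WT. Ctse, an endosomal aspartic protease, held 167 counts in all 20 mice and was not tested.

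Of the serine proteases, Ctsa (chr2:164832873-164841032), the carboxypeptidase that protects lysosomal beta-galactosidase and neuraminidase, was not called. It lay at 148 to 172 CPM in KO (median 154) and at 136 to 174 CPM in WT (median 151), with a log2 fold change of 0.04 ± 0.05 (adjusted p = 0.52). The mice overlapped over most of this range. Under library size scaling edgeR called Ctsa higher (log2 fold change 0.51, adjusted p = 9.8e-07). Its exons overlap those of Neurl2 and Pltp on the opposite strand, and whether counting used strand is not stated, so part of its counts may belong to them. Ctsg, a protease of neutrophil granules, held 1 count and was not tested.

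Among the cysteine proteases Ctsl, a broad endopeptidase (chr13:64363214-64370306), was the most abundant at 492 ± 101 RPKM in KO, against 400 ± 96.3 RPKM for WT (SD over 10 mice). In CPM it ran from 673 to 1331 in KO (median 931) and from 554 to 1028 in WT (median 757). These ranges overlapped, and the log2 fold change of 0.30 ± 0.14 was not called with edgeR (adjusted p = 0.067). It was called by DESeq2 (adjusted p = 0.042), by limma-voom with quality weights (0.40, adjusted p = 0.0094), under library size scaling (0.76, adjusted p = 1.3e-04) and in 6 of 20 fits without 1 mouse.

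Ctsz, a carboxypeptidase (chr2:174427494-174438992), was the next most abundant by length in WT at 186 ± 17.9 RPKM, and 174 ± 15.5 RPKM in KO. It ran from 214 to 288 CPM in KO (median 237) and from 216 to 296 CPM in WT (median 258), and was not called (log2 fold change -0.10 ± 0.06, adjusted p = 0.20; 0.38 under library size scaling, called). Its exons overlap those of Nelfcd on the opposite strand by 9 bases.

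Ctsh, an aminopeptidase (chr9:90054267-90076095), fell with TMM. It lay at 123 to 167 CPM in KO (median 142) and at 186 to 232 CPM in WT (median 194), so no KO mouse reached the WT range. The log2 fold change was -0.48 ± 0.06 (adjusted p = 1.1e-06), and -0.01 under library size scaling (adjusted p = 0.92). Here KO_391 was the KO mouse nearest to WT. Ctsf fell as well, from 24.3 ± 2.54 to 19.1 ± 1.85 CPM (SD) a log2 fold change of -0.34 (adjusted p = 1.2e-04), but stood at 0.11 and was not called under library size scaling. Ctsh, Ctsf and the cathepsins of the next 2 paragraphs are members like the rest, but were picked for fuller description after their values were seen.

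Ctss, which processes antigen in macrophages and dendritic cells, rose from a WT median of 19.5 CPM (11.4 to 27.9) to a KO median of 39.3 CPM (27.4 to 52.5). Its log2 fold change was 0.99 ± 0.17 (adjusted p = 4.8e-05), and the ranges overlapped only through KO_391 and WT_415. Ctsc, the dipeptidyl peptidase that activates granule proteases, rose from 33.0 ± 3.49 to 50.0 ± 12.99 CPM, by 0.60 on the log2 scale (adjusted p = 9.9e-05). KO_416 was far above the other KO mice in Ctsc, at 82.5 CPM. Ctsk, best known from osteoclasts, was near 1 CPM and was called only narrowly (0.76 ± 0.31, adjusted p = 0.038). Its adjusted p lay between 0.057 and 0.073 when KO_414, KO_416, WT_407, WT_408, WT_409, WT_415 or WT_427 was left out.

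Ctsb, an endopeptidase that also removes dipeptides, rose by a log2 fold change of 0.21 ± 0.08 (adjusted p = 0.027), from 526 ± 53.3 to 607 ± 80.0 CPM. That call was lost without WT_407 or without WT_409 (adjusted p = 0.051 in each), and 774 bases of its exons overlap Fdft1 on the opposite strand. Ctso rose by 0.20 ± 0.05 (adjusted p = 5.9e-04), from 44.4 ± 3.02 to 51.1 ± 2.46 CPM. Ctsw, a gene of cytotoxic lymphocytes, was at 0.12 to 2.90 CPM and not called; its highest mice were WT_415 at 2.90 and KO_414 at 1.77 CPM. The same mice had the highest summed level of 10 T and NK cell markers, at 13.9 and 19.2 CPM. Ctsj, a placental cathepsin of rodents, held 25 counts, all of them in 5 KO mice and 13 in KO_416, and was not tested.

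**Figure D2:**
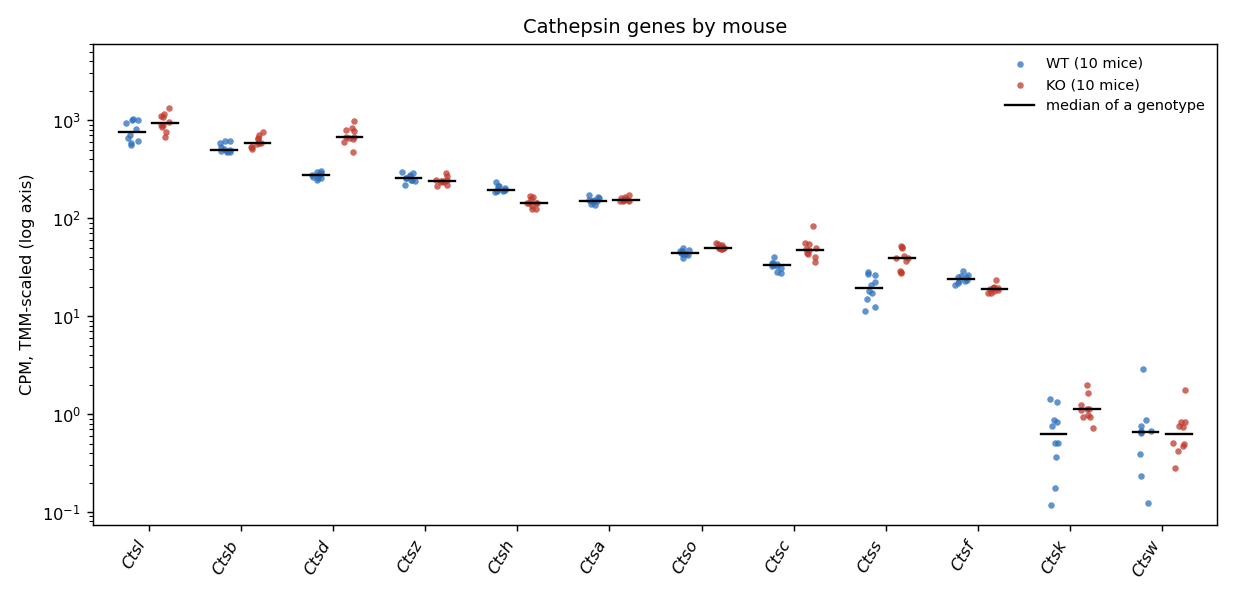
TMM-scaled CPM on a log axis for the 12 tested cathepsins, 1 point per mouse, WT in blue and KO in red (10 mice each), with black bars at the median. Ctsd is the gene whose KO mice (470 to 979 CPM) all stand above the WT mice (244 to 301 CPM), and Ctsh the gene whose KO mice all stand below with this scaling.

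In the V1 sector 5 of 9 tested subunits rose and 0 fell, with a median log2 fold change of 0.23. The most abundant V1 transcripts by length in WT were Atp6v1e1 and Atp6v1f, and neither was called with TMM. Atp6v1e1, of the peripheral stalk (chr6:120795244-120822685), ran from 86.5 to 108 CPM in KO (median 92.1) and from 83.8 to 115 CPM in WT (median 88.2), with a log2 fold change of 0.05 ± 0.06 (adjusted p = 0.46). WT_429, at 115 CPM, set the upper end of the WT range. Under library size scaling edgeR called Atp6v1e1 higher (0.52, adjusted p = 1.6e-06). Atp6v1f, of the central rotor (chr6:29467783-29470509), ran from 30.1 to 42.4 CPM in KO (median 35.1) and from 33.0 to 46.9 CPM in WT (median 40.8). Its log2 fold change was -0.15 ± 0.07 (adjusted p = 0.073), and 0.33 under library size scaling, where it was called higher.

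The V1 subunits that changed most were those that bind nucleotide; they and the other pump genes that follow were picked by their values. Atp6v1a, the catalytic A subunit (chr16:44085404-44139019), lay at 59.6 to 85.3 CPM in KO (median 68.1) and at 29.5 to 46.9 CPM in WT (median 37.3). The ranges did not touch, and the log2 fold change was 0.89 ± 0.07 (adjusted p = 1.9e-09). Atp6v1b2, the B subunit (chr8:69088736-69113718), lay at 34.4 to 45.2 CPM in KO (median 42.8) and at 20.6 to 32.5 CPM in WT (median 27.0). All KO mice were again above all WT mice, with a log2 fold change of 0.62 ± 0.07 (adjusted p = 3.0e-07). A gene with no symbol on the opposite strand overlaps 918 bases of Atp6v1b2.

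Atp6v1h, a regulatory subunit that joins the pump's sectors, lay at 56.0 to 103 CPM in KO and at 42.9 to 54.9 CPM in WT. It rose by 0.50 ± 0.09 on the log2 scale (adjusted p = 3.4e-05). KO_453 alone stood at 103 CPM, and without it the log2 fold change was 0.44. Atp6v1g1, of the stalk, rose by 0.32 (adjusted p = 0.0011), and 675 bases of its exons overlap Gm11483 on the opposite strand. Atp6v1c1, which links the stalks, rose by 0.23 (adjusted p = 7.9e-04). Atp6v1d, of the central rotor, was at 0.12 (adjusted p = 0.074) with edgeR, and DESeq2 gave an adjusted p of 0.042. Under library size scaling edgeR called it higher (0.59, adjusted p = 2.8e-08).

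In the V0 sector 3 of 8 tested subunits rose and 0 fell (0 also at an unadjusted p under 0.05), with a median of 0.16. The proton-carrying ring is made of Atp6v0b and Atp6v0c, and neither was called. Atp6v0b (chr4:117884330-117887329) ran from 68.7 to 82.7 CPM in KO (median 74.8) and from 70.7 to 82.1 CPM in WT (median 76.7). The fold change was -0.04 ± 0.04 on the log2 scale (adjusted p = 0.45), and 0.43 under library size scaling. Atp6v0c (chr17:24163866-24169429) ran from 57.7 to 68.4 CPM in KO (median 65.4) and from 57.7 to 76.6 CPM in WT (median 66.5). On the log2 scale it changed by -0.06 ± 0.05 (adjusted p = 0.34), and 0.42 under library size scaling. Atp6v0c has pseudogene copies, and multi-mapping fragments were counted, so its counts may include theirs. Atp6v0d1, the collar between ring and rotor, was at -0.04 (adjusted p = 0.41), and at 0.42 under library size scaling.

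The V0 subunits that rose sit outside the ring. Atp6v0e, a small membrane subunit (chr17:26676396-26699647), lay at 40.4 to 60.2 CPM in KO (median 54.0) and at 29.6 to 35.2 CPM in WT (median 33.4). KO mice were all above WT mice, KO_391 being the lowest, and the log2 fold change was 0.71 ± 0.06 (adjusted p = 1.6e-09). Atp6v0a1 and Atp6v0a2 encode forms of the large a subunit, which anchors the stalk. Atp6v0a1 rose by 0.53 (adjusted p = 4.5e-06), from 53.0 ± 4.32 to 76.5 ± 10.8 CPM, and KO_416 at 52.2 CPM stayed within the WT range. Atp6v0a2 rose by 0.54 (adjusted p = 1.2e-05), from 16.2 ± 2.88 to 23.6 ± 2.24 CPM, and WT_427 at 23.3 CPM reached the KO range.

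Isoforms of the pump best known from kidney, bone, brain or epididymis were low. Of 6 in the table, Atp6v0d2, Atp6v0e2 and Atp6v1g2 were tested and 0 were called by edgeR, DESeq2 or limma-voom, nor was any under an unadjusted p of 0.05 in edgeR with TMM. Under library size scaling Atp6v0e2 was called higher (log2 fold change 0.84, adjusted p = 0.0028). Atp6v0d2 ran from 0.49 to 8.44 CPM in WT and from 1.11 to 3.21 CPM in KO. The highest value belonged to WT_441, and its log2 fold change was -0.05 with that mouse and 0.44 without it, not called in either case. Atp6v0a4 held 61 counts, Atp6v1c2 31 and Atp6v1b1 10, over all mice, and these were not tested. Atp6v1fnb, a neighbour of Atp6v1f that matches the rule by name and is no pump subunit, held 20 counts.

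Of the accessory proteins, Atp6ap2, the prorenin receptor that helps assemble the pump (chrX:12587759-12617051), rose. It lay at 33.7 to 47.6 CPM in KO (median 40.4) and at 27.4 to 34.6 CPM in WT (median 29.9), with a log2 fold change of 0.45 ± 0.06 (adjusted p = 1.1e-06). The ranges overlapped through WT_427 at the top of WT. Atp6ap1 (chrX:74297097-74304721) ran from 61.2 to 73.2 CPM in KO (median 68.1) and from 57.7 to 74.7 CPM in WT (median 63.0). It was not called by edgeR with TMM (0.10 ± 0.05, adjusted p = 0.071), and DESeq2 gave an adjusted p of 0.026. Under library size scaling edgeR called it higher (0.58, adjusted p = 4.8e-08). Atp6ap1l held 1 count.

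Lamp1 and Lamp2, the most abundant lysosomal membrane proteins, parted. Lamp1 (chr8:13159135-13175338) ran from 598 to 699 CPM in KO (median 633) and from 594 to 718 CPM in WT (median 645). The log2 fold change was -0.02 ± 0.05 (adjusted p = 0.75), and 0.45 under library size scaling, where it was called higher. Lamp2 (chrX:38405064-38456455), whose forms serve as autophagy receptors and membrane proteins, lay at 421 to 575 CPM in KO (median 477) and at 583 to 718 CPM in WT (median 664). Every KO mouse was below every WT mouse, KO_391 being nearest to WT. Its log2 fold change was -0.46 ± 0.06 (adjusted p = 2.0e-06) and 0.01, not called, under library size scaling. Lamp3, a gene of mature dendritic cells, was near 1 CPM and not called with TMM. Under library size scaling edgeR called it higher (0.58, adjusted p = 0.024).

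**Figure D3:**
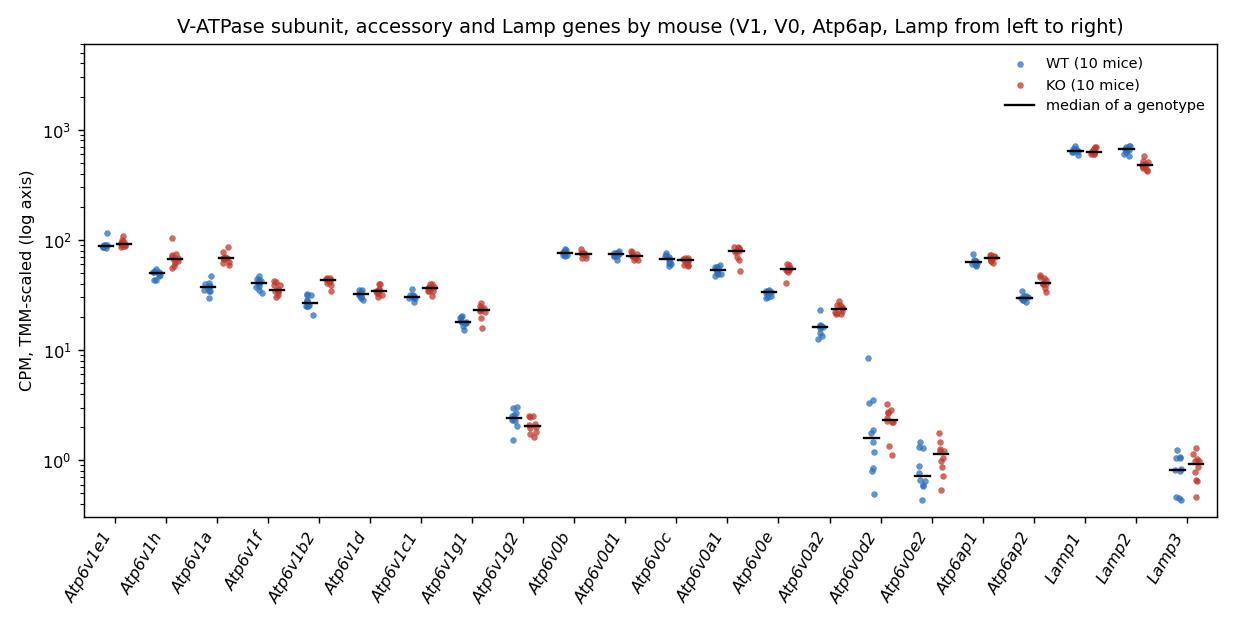
TMM-scaled CPM on a log axis for the tested V1, V0, Atp6ap and Lamp genes, ordered by level within each role, 1 point per mouse (WT blue, KO red, 10 each) with black bars at the median. Atp6v1a, Atp6v1b2, Atp6v1h and Atp6v0e show KO mice entirely above WT mice, while Atp6v1e1, Atp6v0b, Atp6v0c and Atp6v0d1 overlap. Lamp2 is entirely lower in KO with this scaling.

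Ratios between genes of 1 library do not depend on how libraries are scaled. They are given as a description with no test, since the pairs were picked after the values were seen. Ctsd made up 21.5 to 30.9% of the summed cathepsin RPKM in KO and 12.0 to 15.2% in WT. Ctsh made up 4.73 to 9.20% in KO and 9.95 to 14.9% in WT. So within the cathepsin pool every KO mouse had a larger share of Ctsd and a smaller share of Ctsh than every WT mouse. The share of Ctsl was 35.8 ± 4.04% in KO, against 37.4 ± 5.26% for WT (SD over 10 mice), with overlap.

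Of 8 ratios formed inside the pump, 2 did not overlap between the genotypes. The ratio of Atp6v1a to Atp6v1e1 RPKM was 0.190 to 0.280 in KO and 0.105 to 0.162 in WT, and that of Atp6v0e to Atp6v0b was 0.674 to 0.978 in KO and 0.478 to 0.578 in WT. The other ratios overlapped, those of Atp6v1b2, Atp6v1h and Atp6v1d to Atp6v1e1, of Atp6v1a to Atp6v1b2, of Atp6v0a1 to Atp6v0d1 and of Atp6v0c to Atp6v0b. That of Atp6v1b2 to Atp6v1e1 was 0.158 to 0.220 in KO and 0.105 to 0.159 in WT, and that of Atp6v0c to Atp6v0b was 0.743 ± 0.0346 in KO and 0.755 ± 0.0596 in WT. Lamp1 over Lamp2 was 2.21 to 2.96 in KO and 1.64 to 1.96 in WT. Ctsd and Ctsh, Atp6v1a and Atp6v1e1, Atp6v0e and Atp6v0b, and Lamp1 and Lamp2 therefore changed unequally under any scaling. The ratio of summed cathepsin to summed V-ATPase RPKM was 2.54 ± 0.278 in KO and 2.20 ± 0.197 in WT, with overlapping mice.

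**Figure D4:**
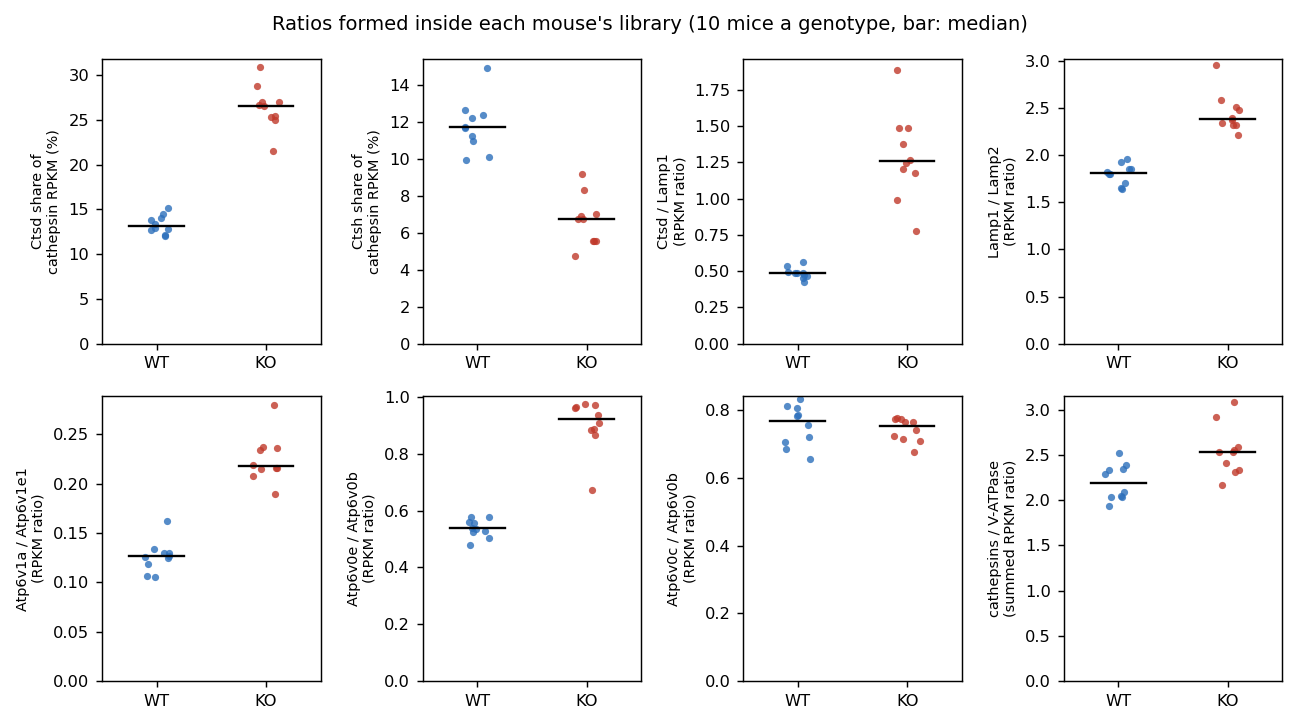
Shares and ratios of RPKM formed inside each library, all axes starting at 0, 1 point per mouse (WT blue, KO red, 10 each) with black bars at the median. The Ctsd share, Ctsd over Lamp1, Lamp1 over Lamp2, Atp6v1a over Atp6v1e1 and Atp6v0e over Atp6v0b are higher in all KO mice, the Ctsh share is lower in all KO mice, and Atp6v0c over Atp6v0b and cathepsins over V-ATPase overlap.

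In the authors' deposited table of the ROTS test, 32 of the 34 tested members had a row. At a false discovery rate (FDR) under 0.05 that table gives 11 members higher and 2 lower, against 22.1% and 18.9% of its 12820 genes. The 11 comprise Ctsd, Ctss, Ctsc, Ctsk, Atp6v1a, Atp6v1b2, Atp6v1h, Atp6v0e, Atp6v0a1, Atp6v0a2 and Atp6ap2, and the 2 are Ctsh and Lamp2. For Ctsd the authors' deposited table has a log2 fold change of 1.35 and an FDR of 0, and for Atp6v1a 0.88 and 7.3e-04. In the authors' deposited gene ontology table the term for the V-type proton ATPase complex has an FDR p-value of 0.999998.

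Other lysosomal genes were read from lists of the same system, beside 28.2% of all tested genes higher and 31.0% lower with TMM and 68.4% and 6.71% under library size scaling. Of 45 tested hydrolases and cofactors, 29 rose and 8 fell, with a median log2 fold change of 0.29 (43 higher and 1 lower under library size scaling). The smallest adjusted p-values belonged to Galns (16.2 ± 2.90 CPM in KO, 7.24 ± 1.29 in WT), Psap (664 ± 69.4 and 394 ± 43.6), Hexa (62.5 ± 4.56 and 41.0 ± 5.33) and Gaa (147 ± 13.7 and 97.1 ± 9.99). Psap encodes the precursor of saposins, which help degrade sphingolipids, and Gaa the enzyme that degrades lysosomal glycogen. Of 24 other membrane proteins 9 rose and 9 fell (median -0.05; 21 higher, 0 lower and a median of 0.42 under library size scaling). Cd63, a tetraspanin of late endosomes, rose from 3.01 ± 0.877 to 44.7 ± 17.9 CPM and Gpnmb, induced in lipid-loaded macrophages, from 0.33 ± 0.19 to 7.66 ± 6.01 CPM. Slc15a3 and Abca2 rose by log2 fold changes of 1.11 and 0.64.

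Of 13 tested partners that assemble or bind the pump, 3 rose and 4 fell, shares near those of all genes; under library size scaling 12 were higher and 0 lower. Ncoa7, whose protein interacts with V1, rose from 1.34 ± 0.557 to 3.50 ± 1.20 CPM, Tmem9 rose by 0.39, and Rnasek and Dmxl1 fell by 0.29 each with TMM (0.19, called higher, and 0.18, not called, under library size scaling). Of 6 tested genes for protease inhibitors, 3 rose with TMM, and all 6 were higher under library size scaling. Serpinb6a rose from 11.0 ± 2.75 to 145 ± 48.6 CPM and Spink1 from 0.21 ± 0.16 to 1.54 ± 0.81 CPM. Cstb, which encodes cystatin B, rose from 31.4 ± 1.99 to 74.0 ± 21.9 CPM. Whether these inhibitors act on the cathepsins measured here was not tested. Cst3, the secreted cystatin C, stood at 78.5 ± 3.40 CPM in KO and 78.2 ± 4.99 in WT and was not called. Ctla2a was not called either.

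Among 12 genes for delivery of lysosomal proteins, including those of mannose 6-phosphate tagging and sorting, 6 rose and 2 fell. Under library size scaling 10 were higher and 0 lower. M6pr, a mannose 6-phosphate receptor, rose from 99.7 ± 3.03 to 140 ± 15.6 CPM, Gga2, its sorting adaptor, by 0.99, and Cln6 from 3.62 ± 1.17 to 26.3 ± 8.28 CPM. Gnptg, a subunit of the enzyme that makes the tag, fell by 0.41 with TMM and was at 0.06, not called, under library size scaling. Of 17 tested genes for TFEB-family factors and lysosomal nutrient sensing 4 rose and 5 fell, again near the shares of all genes (15 higher and 0 lower under library size scaling). Tfe3 rose from 26.2 ± 1.25 to 40.0 ± 3.70 CPM, and Rragd, Rragc and Rptor rose by 2.60, 0.49 and 0.49. Tfeb itself, named after its value was seen, fell from 10.004 ± 0.665 to 7.54 ± 1.00 CPM with TMM, a log2 fold change of -0.41 (adjusted p = 8.9e-05), and was at 0.06, not called, under library size scaling.

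Several of these genes are also active in cells other than hepatocytes, and marker levels moved with genotype. In bulk tissue, more cells of a type and more RNA per cell cannot be told apart. Of 22 macrophage and Kupffer cell markers 18 rose and 0 fell (0 also at an unadjusted p under 0.05, edgeR; median 0.96), with summed CPM of 611 to 1143 in KO and 308 to 548 in WT; Cd9, Lyz2, C1qb and Cd68 had the smallest adjusted p. Of 12 hepatocyte markers 11 fell (median -0.73), with summed CPM of 67343 to 83345 in KO and 100600 to 141598 in WT, led by Ahsg, Serpina1a, Ttr and Asgr1. Under library size scaling 6 of the 12 were lower and 2 higher. Of 10 stellate and endothelial markers, a list that pools both cell types, 7 rose, led by Dcn, Col1a1, Lrat and Reln. The other 3 were not called, the lowest at a log2 fold change of -0.77. Summed CPM was 329 to 485 in KO and 206 to 371 in WT. Under library size scaling 9 of these 10 markers and 20 of the 22 macrophage markers were higher, and 0 were lower. The part of these cell types in the rises of Ctss, Ctsc, Ctsk, Ctsd and the pump subunits, and in the fall of Ctsh with TMM, was not tested.

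Of 5 tested cholangiocyte markers 2 rose (Epcam, Spp1) and Sox9 fell, and Krt19 was not called. Spp1 is also among the macrophage and Kupffer cell markers, so it was counted in both lists. Of 6 tested B cell and dendritic cell markers Flt3 rose; Clec9a and Siglech were not called. The 2 tested neutrophil markers, S100a8 and S100a9, were not called, and 0 of 10 T and NK cell markers had enough counts to test. Markers without any count were not found in these lists.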

How the data were processed

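The authors deposited raw fragment counts per gene for the 20 mice, on mm10 coordinates with multi-mapping fragments counted. Per the submitters' processing notes HISAT2 2.0.5 and DESeq2 were used, while the deposited file names give Rsubread and ROTS. The authors also deposited a normalized signal, which equals TMM CPM (largest relative deviation 5.0e-15), RPKM values, and a ROTS table with log2 fold changes, p-values and FDR per the file headers. Gene ontology p-values come from the authors too, with input and background not stated.

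Counts were fitted here with edgeR 4.0.16 (R 4.3.3): filterByExpr (minimum count 10, minimum total count 15) kept 13670 of 20914 genes, the rest holding 0.0858% of fragments. Libraries were TMM-scaled, dispersions robust, and the quasi-likelihood F test was adjusted over all tested genes by Benjamini-Hochberg. No batch, litter or date is in the labels, and p-values measure the spread between mice. Members, lists and tests were chosen with earlier results of these data known. Full values go to members called with a log2 fold change of at least 1 or among the 2 highest of a role by WT RPKM, and to up to 4 genes of a list with the smallest adjusted p. Genes outside this rule were described after their values were seen, and 1 gene within it is not reported here. Alternatives were other scalings and filters, DESeq2 1.42.0, limma 3.58.1 (voom with quality weights, and log2 RPKM with pseudocounts of 0.1 and 1), a threshold of 0.01, and leaving out each mouse. The edgeR script was tested on simulated data.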

Additional observations from a re-analysis of the deposited data

Results flagged for a closer look

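In 8 of 68 groups of 10 mice (34 genes in each genotype) 1 mouse lay far from the others by Dixon's ratio, and chance flags about 1 in 20 groups. The ratio was taken on log2 CPM, while the values below are CPM. Mice far from the others in CPM, such as WT_441 for Atp6v0d2 and WT_415 for Ctsw, were not flagged on the log2 scale. KO_391 was lowest of the KO mice for Atp6v0e at 40.4 CPM (others 51.2 to 60.2) and highest for Ctsf at 23.6 CPM (others 17.0 to 19.9). KO_453 was highest for Atp6v1h at 103 CPM (others 56.0 to 74.3), and KO_416 for Ctsc at 82.5 CPM (others 35.3 to 55.3). WT_427 was highest of the WT mice for Atp6v0a2 at 23.3 CPM (others 12.6 to 16.9) and for Atp6ap2 at 34.6 CPM (others 27.4 to 30.9). WT_429 was highest for Atp6v1e1 at 115 CPM (others 83.8 to 90.7), and WT_390 for Atp6ap1 at 74.7 CPM (others 57.7 to 65.7).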

How the results depend on the processing

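No paired analysis was possible because nothing in the labels ties a KO mouse to a WT mouse. Under library size scaling 28 members were higher and 0 lower, 0 cathepsins were lower and 15 V-ATPase subunits higher, and the medians of cathepsins and subunits were 0.67 and 0.70. The log2 fold change changed sign there for Atp6v0b (0.43), Atp6v0c (0.42), Atp6v0d1 (0.42), Atp6v1f (0.33), Ctsz (0.38), Lamp1 (0.45), Lamp2 (0.0089) and Ctsf (0.11), and, called under neither scaling, for Atp6v1g2 (0.23), Ctsw (0.27) and Atp6v0d2 (0.37). The median of subunits, and the difference of cathepsins minus subunits, were 0.12 and 0.092 with no filter, 0.31 and -0.10 with log2(RPKM + 0.1), 0.13 and 0.074 with log2(RPKM + 1), and 0.39 and -0.15 without KO_391 and WT_441 together, a choice made after seeing the data. The uncalled genes Atp6v0d2 and Ctsw also changed sign elsewhere: Atp6v0d2 to 0.60 (voom), 0.31 (log2(RPKM + 0.1)), 0.084 (log2(RPKM + 1)) and 0.55 (without KO_391 and WT_441), Ctsw to 0.038 (voom) and 0.060 (log2(RPKM + 0.1)). The cause was not tested in any of these cases.

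Leaving out each mouse gave 13 to 18 members higher and 3 to 4 lower, 4 to 7 cathepsins higher (4 without WT_407) and 8 to 9 subunits higher. Over all genes these fits gave 3762 to 4180 higher and 3704 to 4289 lower, of 13701 to 13800 tested. Subunits lower numbered 0 to 1, with Atp6v1f called lower without WT_407 (-0.17) or WT_415 (-0.18) and Atp6v1g2 without WT_429 (-0.29). The cathepsin median was 0.19 to 0.27, the subunit median 0.21 to 0.31 and their difference -0.11 to 0.036. Log2 fold changes ran from -0.037 to 0.014 for Lamp1, from -0.17 to 0.44 for Atp6v0d2 and from -0.41 to 0.35 for Ctsw. At an adjusted p under 0.01, 13 members were higher and 3 lower, without Ctsb and Ctsk. The share of all genes at that threshold was not counted. Hsd17b12 stayed between -1.70 and -1.19 in all fits.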
